A study of Rattus norvegicus with 18 samples.

Results

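The 10 genes described here make, recycle or use the thiol antioxidants glutathione and thioredoxin, or set the activity of NRF2, the transcription factor that controls many of them. They were chosen by name, with earlier results of these data known. Slc7a11, Gclc, Gclm and Gsr were taken for glutathione, and Txn1, Txnrd1 and Srxn1 for thioredoxin. Osgin1 was taken as a further oxidant-induced gene, and Nfe2l2 and Keap1 as the factor and its inhibitor. All 10 were on the array and all passed the filter on low values, so they are 10 of the 9149 genes tested. Of the 31099 probe sets on the array, 15 carry 1 of their symbols.

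NRF2, the product of Nfe2l2, is bound in the cytosol by KEAP1, which hands it to a ubiquitin ligase for degradation. Oxidants and electrophiles that modify cysteines of KEAP1 let NRF2 accumulate, enter the nucleus and bind, with a small MAF protein, the antioxidant response elements of its target genes. Those targets supply cystine, glutathione and reduced thioredoxin, on which kidney tubule cells rely to detoxify reactive compounds. Chlorothalonil, the compound tested, is an organochlorine fungicide that reacts with thiols.

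The cells were NRK-52E, 1 established rat kidney epithelial line, labelled as proximal tubule cells of the Osborne-Mendel strain. They were grown to confluence, and all 6 groups received DMSO at 0.1%. In 3 groups the medium also held chlorothalonil at 1.1 µM for 6, 24 or 72 h, the concentration that the labels give as inhibiting by 10% at 72 h. The other 3 groups had DMSO only for the same times, and each group has 3 arrays, 18 in all. Per the labels these arrays are biological replicates, and the design mentions 3 studies per time, but whether separate cultures were used is not stated. The p-values therefore measure the spread between these arrays, which may be technical, and 3 arrays per group limit the precision of every value.

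Levels below are deposited log2 GCRMA values of the brightest probe set of a gene. A gene at or below log2 4 in all 3 arrays of a group is called at background there. A change is the log2 difference between group means with its standard error (SE), and a gene is called where limma's p, adjusted over all 9149 genes, is under 0.05. Arrays of 1 group correlated at 0.992 to 0.998 over these genes. Of 10 proximal tubule markers, 2 were above log2 4 in all arrays of each group, Enpep in all 6 groups with Ggt1 or, in DMSO at 72 h, Aqp1, while Lrp2, Cubn, Slc34a1, Slc5a2, Slc22a6, Anpep and Vil1 were at background throughout, so the data give little sign of the labelled segment. Of 8 general epithelial markers, Krt8, Tjp1 and Ocln were above log2 4 in all arrays and Cdh1, Epcam, Krt18, Krt19 and Cdh16 were at background. The list of 7 fibroblast markers moved with treatment. In all arrays of a group, 2 or 3 of them were above log2 4 (Col3a1 and Col1a1 in every group, Col1a2 in 4), and Lum, Thy1, Dcn and Pdgfra were at background in all arrays. Their summed log2 level was 9.66 to 9.79 in DMSO against 10.1 to 10.2 in treated arrays at 6 h, 10.6 to 10.7 against 9.01 to 9.43 at 24 h, and 14.4 to 14.6 against 11.1 to 11.6 at 72 h. Their part in the results was not tested. Of the other marker lists, no leukocyte or distal nephron marker was above log2 4 in all arrays of a group, the podocyte list showed Wt1 in every group, and the endothelial list showed Tek in DMSO at 72 h.

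The scale matters for every direction below. The 24 probe sets for spiked poly-A controls were brighter in treated than in DMSO arrays by 0.62 at 6 h, 1.07 at 24 h and 0.67 at 72 h. When each array was scaled to them, all 9149 genes had median changes of −0.62, −1.02 and −0.60 in place of −0.0097, 0.057 and 0.074. DMSO replicate 1 of 24 h stood apart, with a control mean of 8.97 beside 10.1 and 10.3 for replicates 2 and 3, and leaving it out gave a 24 h median of −0.59. Relative to the median gene, a change is the same on both scales. Values are on the deposited scale unless the poly-A scale is named. For the brightest probe set, a called change whose direction turns on the poly-A scale is given with its poly-A value. Changes that were not called may turn there without such a value. The reason for the brighter controls was not tested.

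The promoters that hold a match to a motif of this pathway are shown first. RefSeq promoters of assembly GRCr8, each from 250 bases before to 50 bases after a gene start, were matched by symbol for 9 of the 10 genes, and Gsr was not matched. They were searched on both strands for the core of the antioxidant response element, TGACNNNGC, which NRF2 binds, for TGATGNAA, the element bound by ATF4 with a C/EBP partner, and for TGANTCA, the AP-1 site. The first and the last of these can overlap each other. The antioxidant response core was found in promoters of 3 genes, Gclm, Txnrd1 and Nfe2l2, and in 12.1% of all 33469 promoters of that length. The AP-1 site was found in Srxn1 alone of the 9, against 7.33% of all promoters, and the ATF4 element in 0 of the 9, against 3.98%. In the lines below the matches are in capitals, in the letters of the strand of the gene. In Gclm the core lies on the opposite strand, so the gene strand reads GCTTAGTCA, with its first base at −172 from the gene start. In the second of the 2 Txnrd1 promoters the core also lies on the opposite strand. There the gene strand reads GCTTTGTCA, with its first base at −78. In Srxn1 TGAGTCA starts at −62 and again at −5, and in Nfe2l2 TGACGCCGC starts 39 bases into the transcript. A match describes these letters and is not a measured binding site. The Srxn1 site at −5 is followed by gc and has G where the antioxidant response core searched for has C. Other forms of that core were not searched.
Gclm (chr2:213031885-213032184, plus strand): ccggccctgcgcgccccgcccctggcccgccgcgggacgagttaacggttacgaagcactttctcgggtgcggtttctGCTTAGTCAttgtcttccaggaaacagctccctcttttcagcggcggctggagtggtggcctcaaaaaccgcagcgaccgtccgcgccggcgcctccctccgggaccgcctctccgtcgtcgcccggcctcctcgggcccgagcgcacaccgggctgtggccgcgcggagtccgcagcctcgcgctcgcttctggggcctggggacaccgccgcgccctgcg
Txnrd1 (chr7:22755855-22756154, minus strand): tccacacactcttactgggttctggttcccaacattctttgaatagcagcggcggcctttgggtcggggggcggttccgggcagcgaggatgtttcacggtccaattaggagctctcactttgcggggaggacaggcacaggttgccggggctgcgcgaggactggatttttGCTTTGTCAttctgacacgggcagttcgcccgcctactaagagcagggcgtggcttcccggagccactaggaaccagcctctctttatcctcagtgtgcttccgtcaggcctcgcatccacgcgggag
Srxn1 (chr3:161064562-161064861, plus strand): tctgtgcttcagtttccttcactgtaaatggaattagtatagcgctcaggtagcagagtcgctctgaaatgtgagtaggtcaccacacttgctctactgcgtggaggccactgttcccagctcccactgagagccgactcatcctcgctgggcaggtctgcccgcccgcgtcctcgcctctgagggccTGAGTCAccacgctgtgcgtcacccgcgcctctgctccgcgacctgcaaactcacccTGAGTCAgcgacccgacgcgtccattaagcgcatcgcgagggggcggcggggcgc
Nfe2l2 (chr3:81028950-81029249, minus strand): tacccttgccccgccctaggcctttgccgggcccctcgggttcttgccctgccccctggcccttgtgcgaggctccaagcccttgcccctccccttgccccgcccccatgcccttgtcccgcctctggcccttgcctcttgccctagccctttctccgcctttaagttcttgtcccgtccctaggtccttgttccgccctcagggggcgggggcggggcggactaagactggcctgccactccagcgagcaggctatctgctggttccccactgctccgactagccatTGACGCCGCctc

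On the deposited scale the calls among the 10 genes went both ways at 6 h, with shares not far from those of all genes. Most of the 10 were higher in treated cells at 24 and 72 h on that scale. At 6 h, 4 genes were higher in treated cells (Slc7a11, Txnrd1, Srxn1 and Osgin1) and 4 lower (Gclc, Gclm, Nfe2l2 and Keap1), where 27.8% of all genes were called higher and 31.8% lower. At 24 h, 8 were higher and 1, Nfe2l2, was lower, against 39.1% and 31.1% of all genes. At 72 h, 7 were higher and 2, Gclc and Nfe2l2, lower, against 37.2% and 27% of all genes, with Slc7a11 at background in both groups among the 7. The median change of the 10 was −0.13, 0.59 and 0.40 at the 3 times, beside medians of all genes of −0.0097, 0.057 and 0.074. On the poly-A scale the calls were 1 higher and 5 lower at 6 h, 3 higher and 4 lower at 24 h, and 2 higher and 2 lower at 72 h. There all 9149 genes gave 232 higher and 3587 lower at 6 h, 256 and 6263 at 24 h, and 312 and 3464 at 72 h. Of the 10, that scale called Gclc, Gclm, Gsr, Nfe2l2 and Keap1 lower at 6 h. It called Gclc, Txn1, Nfe2l2 and Keap1 lower at 24 h, and Gclc and Nfe2l2 at 72 h. Without DMSO replicate 1 of 24 h the poly-A split of the 10 at 24 h was 4 higher and 2 lower, with Txnrd1 (0.94) added to the higher genes. With no array left out, the genes called higher on both scales were Osgin1 at all 3 times, Srxn1 at 24 and 72 h and Slc7a11 at 24 h.

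**Figure D1:**
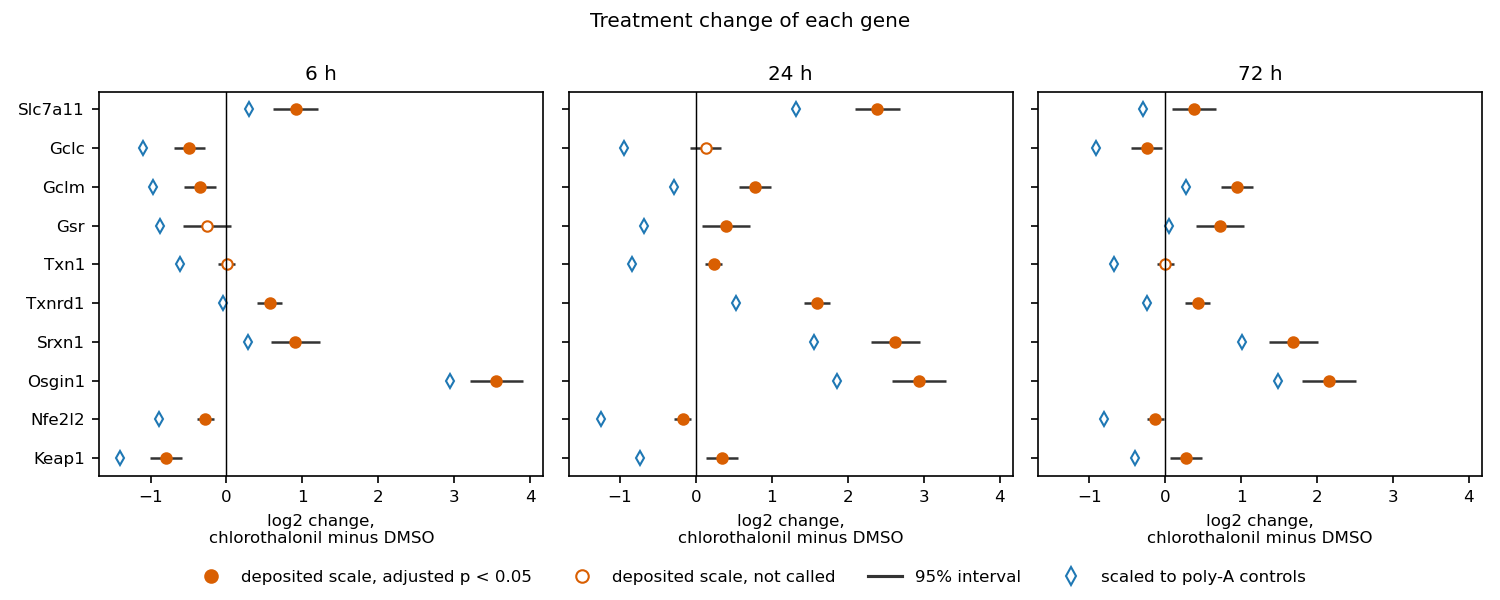
Change of each of the 10 genes, chlorothalonil minus DMSO, on the log2 scale at 6, 24 and 72 h (filled circles, called by limma; open circles, not called; lines, 95% intervals; diamonds, scaled to poly-A controls). Osgin1 was highest at each time, at 3.55, 2.94 and 2.16, and on the poly-A scale every value is lower, which turns the sign of Txnrd1 at 6 and 72 h, of Gclc, Gclm, Gsr, Txn1 and Keap1 at 24 h, and of Keap1 and Slc7a11 at 72 h (Slc7a11 at background in both groups), and takes Txn1 from near 0 to below it at 6 and 72 h.

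Osgin1, an oxidant-induced growth inhibitor, had the largest treatment change of the 10 at every time. At 6 h its log2 level was 6.55, 6.19 and 6.24 in the DMSO arrays and 9.67, 9.84 and 10.13 in the treated arrays. Its 24 h levels were 4.71, 4.12 and 4.56 against 7.54, 7.55 and 7.12. At 72 h it was 3.80, 3.94 and 4.10 against 6.24, 6.01 and 6.06. All 3 treated arrays lay above all 3 DMSO arrays at each time. The changes were 3.55, 2.94 and 2.16 (SE 0.17; limma adjusted p = 3.78e-10, 6.97e-10 and 3.31e-08), or 11.8-fold, 7.67-fold and 4.46-fold. They ranked 25th, 66th and 107th from the highest of 9149 genes. With poly-A scaling they were 2.94, 1.86 and 1.49 and all still called. Both groups fell over time: Osgin1 in DMSO changed by −1.86 from 6 to 24 h and by −0.52 from 24 to 72 h (limma adjusted p = 7.34e-08 and 0.0140), and in treated cells by −2.48 and −1.30 (1.22e-08 and 4.38e-06). In DMSO at 72 h only 1 of 3 arrays was above log2 4, so the fold at that time rests on a control level near background.

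Slc7a11, the cystine transporter subunit that brings in the cystine needed for glutathione, was higher in treated cells at 6 and 24 h and then fell to background in both groups. At 6 h the DMSO arrays read 8.34, 8.30 and 8.40 and the treated arrays 9.16, 9.14 and 9.47 (log2 level). At 24 h they read 5.17, 4.88 and 4.50 against 7.23, 7.12 and 7.38. The groups did not overlap at either time, and the changes were 0.91 and 2.39 (SE 0.14; limma adjusted p = 4.27e-05 and 8.84e-10), or 1.88-fold and 5.25-fold. Poly-A scaling gave 0.30, no longer called, and 1.32, still called. At 72 h all 6 arrays were below log2 4, at 2.79, 2.78 and 2.84 in DMSO and 3.18, 3.35 and 3.02 in treated cells. The groups did not overlap there and limma called the difference (adjusted p = 0.0256), which turned to −0.29 on the poly-A scale, and no fold is given at background. The call was lost without DMSO replicate 1 or 2 or treated replicate 1 or 2 of 72 h (adjusted p = 0.0537 to 0.107). The fall in DMSO cells was 11.3-fold from 6 to 24 h (change −3.50; limma adjusted p = 1.75e-11), rank 9136 of 9149 from the highest change, and at least 1.80-fold from 24 to 72 h. In treated cells Slc7a11 fell 4.04-fold and then at least 9.45-fold.

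**Figure D2:**
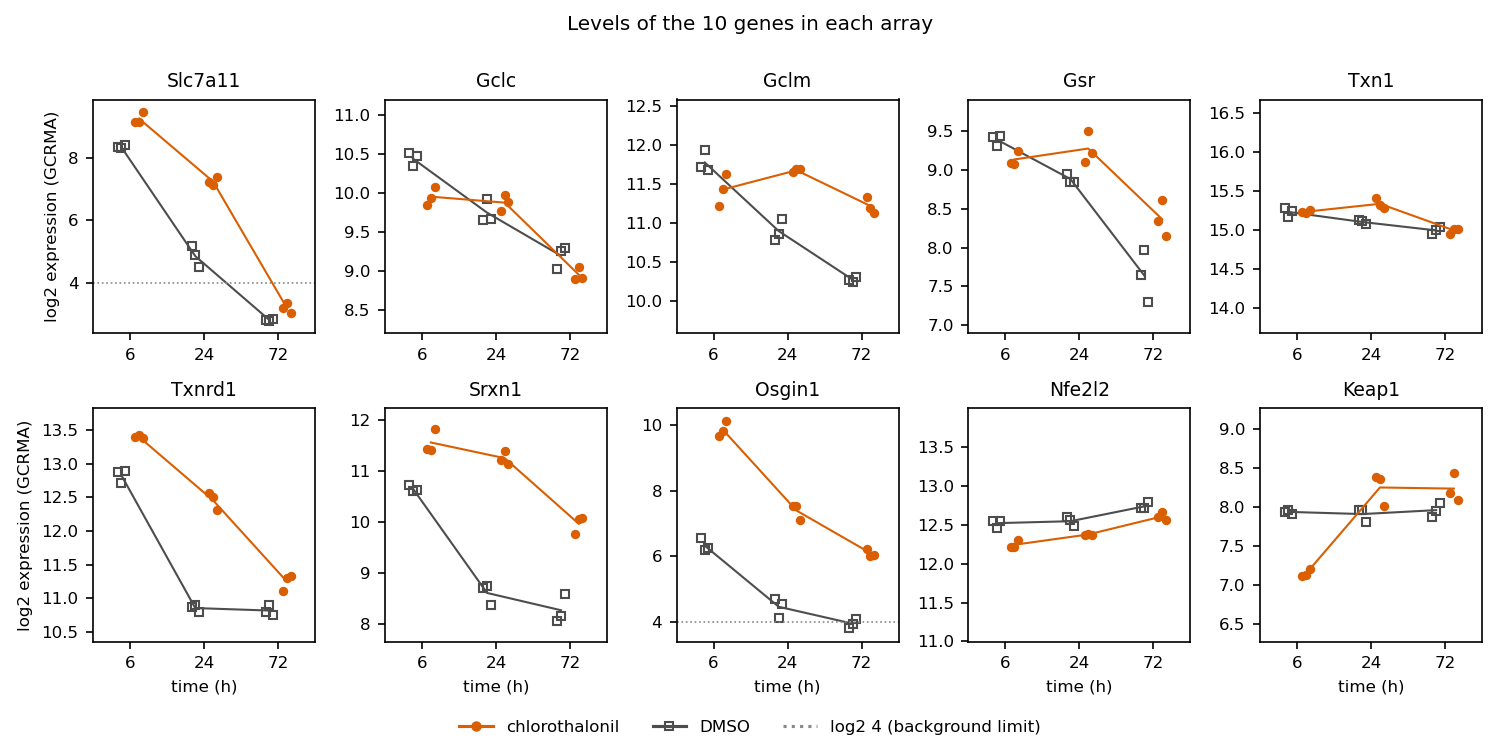
Log2 expression of each of the 10 genes by time, with 1 point per array, lines through the group means, filled circles for chlorothalonil and open squares for DMSO; each panel has its own axis and the dotted line marks log2 4. Osgin1 and Srxn1 show treated arrays above DMSO arrays at all 3 times, while Slc7a11 falls below log2 4 in both groups at 72 h and Keap1 crosses from below DMSO at 6 h to above it at 24 h on this scale (−0.73 at 24 h on the poly-A scale).

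Srxn1, sulfiredoxin, which restores over-oxidised peroxiredoxins, was higher in treated cells at all 3 times. Its log2 level at 6 h was 10.71, 10.60 and 10.63 in DMSO and 11.43, 11.41 and 11.82 in treated arrays. The 24 h levels were 8.71, 8.76 and 8.37 against 11.22, 11.39 and 11.13, and at 72 h 8.07, 8.17 and 8.60 against 9.76, 10.06 and 10.08. No treated array overlapped a DMSO array of its time. The changes were 0.91, 2.63 and 1.69 (SE 0.15; limma adjusted p = 0.000101, 8.05e-10 and 1.60e-07), or 1.87-fold, 6.19-fold and 3.22-fold. Poly-A scaling gave 0.29, no longer called, 1.56 and 1.02. The larger difference at 24 h went with a fall in the controls. Srxn1 in DMSO fell by 2.03 from 6 to 24 h (limma adjusted p = 9.88e-09), whereas its change in treated cells was −0.31 (95% interval −0.63 to 0.013, adjusted p = 0.0912). From 24 to 72 h the treated level fell by 1.28 (adjusted p = 1.88e-06) and the DMSO change was −0.34 (adjusted p = 0.0641). That DMSO fall was called with quantile normalization (−0.44; limma adjusted p = 0.0138), median centring (−0.41; 0.0175), array weights (−0.47; 0.00624) and the mean of probe sets (−1.57; 3.19e-06).

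Txnrd1, the cytosolic thioredoxin reductase that keeps thioredoxin reduced with NADPH, was also higher in treated cells at all 3 times on the deposited scale, though not on the poly-A scale at 6 and 72 h. The DMSO arrays read 12.87, 12.71 and 12.90 at 6 h and the treated arrays 13.39, 13.42 and 13.37. At 24 h the readings were 10.87, 10.91 and 10.80 against 12.56, 12.50 and 12.31, and at 72 h 10.80, 10.90 and 10.76 against 11.11, 11.31 and 11.33. Every treated array lay above the DMSO arrays of its time. The change was 0.57 at 6 h (SE 0.079; limma adjusted p = 1.98e-05), which turned to −0.048 on the poly-A scale. At 24 h it was 1.60 (adjusted p = 1.94e-10), or 3.03-fold, and 0.52, not called, on the poly-A scale. Without DMSO replicate 1 of 24 h the poly-A value was 0.94 and was called. At 72 h the change was 0.43 (adjusted p = 0.000237), which turned to −0.24 on the poly-A scale. In DMSO Txnrd1 fell by 1.97 from 6 to 24 h (adjusted p = 2.16e-11) with a change of −0.04 after that (95% interval −0.21 to 0.13). The second probe set of Txnrd1 averaged 8.99 ± 0.19 in DMSO at 24 h and 8.06 ± 0.23 at 72 h (SD, n = 3), and the mean of both probe sets gave −0.49 over that interval (limma adjusted p = 0.000388). In treated cells the brightest fell by 0.94 and then by 1.21.

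Txn1, thioredoxin itself, moved least of the 10 genes, with group means within 0.34 of each other on the log2 scale. At 6 h its level was 15.17 to 15.29 in DMSO and 15.22 to 15.26 in treated arrays, which overlapped. The same held at 72 h, with 14.95 to 15.03 and 14.95 to 15.02. The 95% intervals of the change were −0.11 to 0.11 at both times (limma adjusted p = 0.971 and 0.993), and the poly-A values were −0.61 and −0.67, not called. At 24 h the treated arrays read 15.41, 15.32 and 15.28, all above the DMSO arrays at 15.12, 15.11 and 15.07. That change was 0.23 (SE 0.052; limma adjusted p = 0.000862), or 1.18-fold. On the poly-A scale it turned to −0.84 and was called lower (limma adjusted p = 0.0162). Without DMSO replicate 1 of 24 h the poly-A value was −0.42, not called (limma adjusted p = 0.103). These values lie near the top of the array's range, whose highest deposited value was 16.1, and the effect of that on the size of the change was not tested.

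The 2 subunits of glutamate-cysteine ligase, which makes the first step of glutathione synthesis, were both lower in treated cells at 6 h, and Gclm was called higher at 24 and 72 h while Gclc was not; the difference between the subunits was not tested. Gclm, the modifier subunit, read 11.72, 11.93 and 11.68 in DMSO and 11.22, 11.44 and 11.63 in treated arrays at 6 h. At 24 h it read 10.79, 10.85 and 11.05 against 11.65, 11.69 and 11.69, and at 72 h 10.27, 10.24 and 10.30 against 11.33, 11.19 and 11.13. The treated arrays were thus all below DMSO at 6 h and all above it later. The changes were −0.35, 0.78 and 0.95 (SE 0.098; limma adjusted p = 0.00632, 3.91e-06 and 7.73e-07), the last 2 being 1.72-fold and 1.93-fold. With median centring the 6 h change of Gclm was −0.26 and not called (adjusted p = 0.0569). The poly-A values were −0.96, −0.29 and 0.28, so the direction at 24 h turned there (0.060 without DMSO replicate 1 of 24 h). The level in DMSO cells fell by 0.88 and 0.62 over the 2 intervals. In treated cells it changed by 0.25 (limma adjusted p = 0.0394; −0.016 on the poly-A scale) and then fell by 0.46.

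Gclc, the catalytic subunit, was lower in treated cells at 6 and 72 h. Its log2 level at 6 h was 10.51, 10.34 and 10.47 in DMSO and 9.85, 9.94 and 10.08 in treated arrays, with no overlap. At 24 h it was 9.65, 9.93 and 9.67 against 9.77, 9.97 and 9.88, and at 72 h 9.03, 9.25 and 9.30 against 8.89, 9.06 and 8.90, and the groups overlapped at both times. The change at 6 h was −0.49 (SE 0.096; limma adjusted p = 0.000468), 1.40-fold lower. The 24 h change was 0.13 (95% interval −0.077 to 0.33, adjusted p = 0.246). On the poly-A scale it was −0.95 and was called lower (limma adjusted p = 0.00681). Without DMSO replicate 1 of 24 h the poly-A value was −0.59, still called (limma adjusted p = 0.0320). At 72 h the change was −0.24 (adjusted p = 0.0375). That call was lost without DMSO replicate 2 or 3 or treated replicate 1 or 3 of 72 h (adjusted p = 0.103 to 0.138). Gclc in DMSO fell by 0.69 and 0.55 over the 2 intervals. The treated level changed by −0.077 from 6 to 24 h (95% interval −0.28 to 0.13) and then fell by 0.93.

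Gsr, glutathione reductase, which returns oxidised glutathione to its reduced form, was higher in treated cells at 24 and 72 h. At 6 h the DMSO arrays read 9.42, 9.31 and 9.44 and the treated arrays 9.08, 9.07 and 9.24, all lower. The change of −0.26 (SE 0.15) was not called (limma adjusted p = 0.148). It was called lower with poly-A scaling (−0.87, limma adjusted p = 0.0225) and with only the groups compared (−0.26, limma adjusted p = 0.0247). At 24 h the readings were 8.95, 8.84 and 8.85 against 9.10, 9.50 and 9.22, a change of 0.39 (adjusted p = 0.0279) that turned to −0.68 on the poly-A scale. This call was lost without DMSO replicate 2 or 3 or treated replicate 2 of 24 h (adjusted p = 0.0656 to 0.134). At 72 h they were 7.64, 7.97 and 7.30 against 8.34, 8.61 and 8.15, with no overlap, a change of 0.73 or 1.65-fold (adjusted p = 0.000569; 0.054 on the poly-A scale, not called). The DMSO level fell by 0.51 from 6 to 24 h and by 1.24 from 24 to 72 h. The treated level changed by 0.14 (95% interval −0.18 to 0.46) and then fell by 0.91.

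Nfe2l2, which encodes NRF2, was slightly lower in treated cells at each time. Its log2 level was 12.55, 12.46 and 12.55 in DMSO against 12.21, 12.22 and 12.30 at 6 h, 12.60, 12.56 and 12.48 against 12.36, 12.39 and 12.37 at 24 h, and 12.71, 12.71 and 12.79 against 12.59, 12.66 and 12.57 at 72 h. The treated arrays lay below the DMSO arrays each time. The changes were −0.28, −0.17 and −0.13 (SE 0.053; limma adjusted p = 0.000329, 0.00931 and 0.0425), the largest being 1.21-fold. They kept their direction on the poly-A scale, at −0.89, −1.24 and −0.80. The call at 72 h was lost when any of 10 single arrays was left out, namely DMSO replicate 1 or 3 or treated replicate 2 of 6 h, treated replicate 2 or 3 of 24 h, or any array of 72 h except treated replicate 2 (adjusted p = 0.050 to 0.145), and with the replicate number as a block (adjusted p = 0.0619). The transcript level does not measure the NRF2 protein, whose amount is set mainly by degradation.

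Keap1, the inhibitor that holds NRF2, changed side between 6 and 24 h in its brightest probe set on the deposited scale, but not on the poly-A scale. The arrays read 7.94, 7.96 and 7.91 in DMSO and 7.11, 7.12 and 7.20 in treated cells at 6 h. At 24 h they read 7.96, 7.96 and 7.81 against 8.38, 8.36 and 8.01, and at 72 h 7.87, 7.95 and 8.05 against 8.18, 8.43 and 8.09. No groups overlapped. The change of the brightest at 6 h was −0.79 (SE 0.10; limma adjusted p = 7.22e-06), 1.73-fold lower and −1.41 on the poly-A scale. At 24 h it was 0.34 (adjusted p = 0.00675). On the poly-A scale it turned to −0.73 and was called lower (limma adjusted p = 0.0367). Without DMSO replicate 1 of 24 h the poly-A value was −0.30, not called (limma adjusted p = 0.261). At 72 h the change was 0.28 (adjusted p = 0.0250) and turned to −0.39 on the poly-A scale. It lost its call without DMSO replicate 1 or 2 or treated replicate 2 of 72 h (adjusted p = 0.0565 to 0.140). In DMSO the changes over time were −0.03 and 0.05 (95% intervals −0.24 to 0.19 and −0.16 to 0.26). In treated cells it rose by 1.11 from 6 to 24 h (limma adjusted p = 2.89e-07; 0.84 on the poly-A scale) with a change of −0.015 after that.

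The treatment change itself differed between times for most of the 10 genes, as it did for most of all genes tested. The share of the 10 called in either direction was near that of all genes from 24 to 72 h and from 6 to 72 h. Between 6 and 24 h the treatment change differed for 9 by limma's interaction test, 8 upward and Osgin1 downward. Of all genes, 39.6% were called upward and 23.4% downward. Nfe2l2 was the gene of the 10 not called (difference 0.11, 95% interval −0.051 to 0.27). Between 24 and 72 h it differed for 6, all downward (Slc7a11, Gclc, Txn1, Txnrd1, Srxn1 and Osgin1), against 29.8% of all genes downward and 27.9% upward. Between 6 and 72 h it differed for 4 upward (Gclm, Gsr, Srxn1 and Keap1) and 2 downward (Slc7a11 and Osgin1), against 37.4% and 21.6%. On the poly-A scale 1 of the 10 was called in each of these comparisons, beside 259 upward and 1232 downward, 1253 and 216, and 631 and 508 of all 9149 genes. With the mean of probe sets neither difference of Keap1 was called (0.64 and 0.89; limma adjusted p = 0.201 and 0.0825), and with median centring that of Txn1 from 6 to 24 h was 0.059 (0.460) and that of Gsr 0.48 (0.0671). The differences of Slc7a11 that involve 72 h rest on levels at background, and the one from 6 to 72 h lost its call without DMSO replicate 2 or treated replicate 3 of 6 h or either replicate 3 of 72 h (limma adjusted p = 0.0527 to 0.0793). The difference of Osgin1 from 6 to 24 h lost its call without DMSO replicate 2 or 3 or treated replicate 3 of 6 h, or DMSO replicate 1 or 3 or treated replicate 3 of 24 h (0.0649 to 0.0880). With no filter, quantile normalization, poly-A scaling or only the groups compared, this difference was not called either. That of Gclc from 24 to 72 h lost its call without DMSO replicate 1 or 3 or treated replicate 2 of 24 h, or DMSO replicate 2 or 3 or treated replicate 1 or 3 of 72 h (0.0613 to 0.0737). That of Gsr from 24 to 72 h was called without DMSO replicate 2 of 72 h (0.0368).

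In cells that received DMSO only, most of the 10 genes fell with time in culture. From 6 to 24 h 8 fell and 0 rose, where 40% of all genes fell and 32.9% rose, and the median change of the 10 was −0.79 beside −0.054 for all genes. Nfe2l2 and Keap1 were the 2 not called, with 95% intervals of −0.087 to 0.14 and −0.24 to 0.19. From 24 to 72 h 5 fell (Slc7a11, Gclc, Gclm, Gsr and Osgin1) and 1, Nfe2l2, rose by 0.19, against 24.3% of all genes that fell and 36.3% that rose. On the poly-A scale the median of all genes was 0.14 over the first interval and −0.14 over the second (−0.28 and 0.27 without DMSO replicate 1 of 24 h), and the calls were 4 lower (Slc7a11, Txnrd1, Srxn1 and Osgin1) and then 2 lower (Slc7a11 and Gsr), where all 9149 genes gave 1917 higher and 1116 lower and then 455 and 938, with Txn1 at 0.065 over the first interval and Nfe2l2 at −0.032 over the second. The call of Txn1 over the first interval was lost without DMSO replicate 1 or 3 of 6 h or 2 or 3 of 24 h (limma adjusted p = 0.0542 to 0.134), and that of Osgin1 over the second without DMSO replicate 1 of 24 h or of 72 h (0.0730 and 0.0573). With median centring the Txn1 change over the first interval was −0.023 (limma adjusted p = 0.672). It was also not called with quantile normalization (−0.088, limma adjusted p = 0.0701) or only the groups compared (limma adjusted p = 0.124). Srxn1 was called lower over the second interval without treated replicate 3 of 6 h or DMSO replicate 3 of 24 h or of 72 h (0.00981 to 0.0466). In treated cells 3 fell from 6 to 24 h (Slc7a11, Txnrd1 and Osgin1) and 3 rose (Gclm, Nfe2l2 and Keap1), against 24.9% and 34.6% of all genes. From 24 to 72 h 8 fell and Nfe2l2 alone rose, by 0.23, against 33.3% and 39.5%. The poly-A scale called 3 lower and 0 higher over the first interval, with Gclm at −0.016 and Nfe2l2 at −0.13, and 4 lower and 0 higher over the second, beside 975 lower and 529 higher and then 827 and 2135 of all genes. Treated and DMSO groups of 1 time enter both the treatment change and these time courses, so the 2 sets of values are not independent.

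The other probe sets of 4 genes give a check within the array, and the remaining 6 genes have 1 probe set each. The second probe set of Txnrd1 changed by 0.62, 2.21 and 0.57 at the 3 times (SE 0.14; limma adjusted p over 16686 probe sets 0.00160, 4.60e-09 and 0.00266), the same directions as the brightest. The second probe set of Srxn1 changed by 1.32 at 6 h and 3.01 at 24 h (SE 0.29; limma adjusted p = 0.00153 and 4.60e-07). At 72 h it was at background in DMSO, at log2 2.71, 3.18 and 2.68, and read 5.34, 4.66 and 4.61 in treated arrays. The remaining probe set of Srxn1 was at background in all arrays, with a mean of 2.24. The second probe set of Gclc changed by −0.26, 0.29 and −0.45 (SE 0.16), called at 72 h only (limma adjusted p = 0.191, 0.136 and 0.0284). The 2 probe sets of Keap1 gave different calls. Its second probe set changed by −0.04, 0.11 and 0.68 with an SE of 0.59, called at no time (limma adjusted p = 0.964, 0.886 and 0.347). It spread widely within groups, from 4.94 to 6.66 in DMSO at 6 h and from 2.69 to 5.36 in DMSO at 72 h. With the mean of both probe sets in place of the brightest, the treatment change of Keap1 was called at no time (limma adjusted p = 0.245, 0.518 and 0.177).

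**Figure D3:**
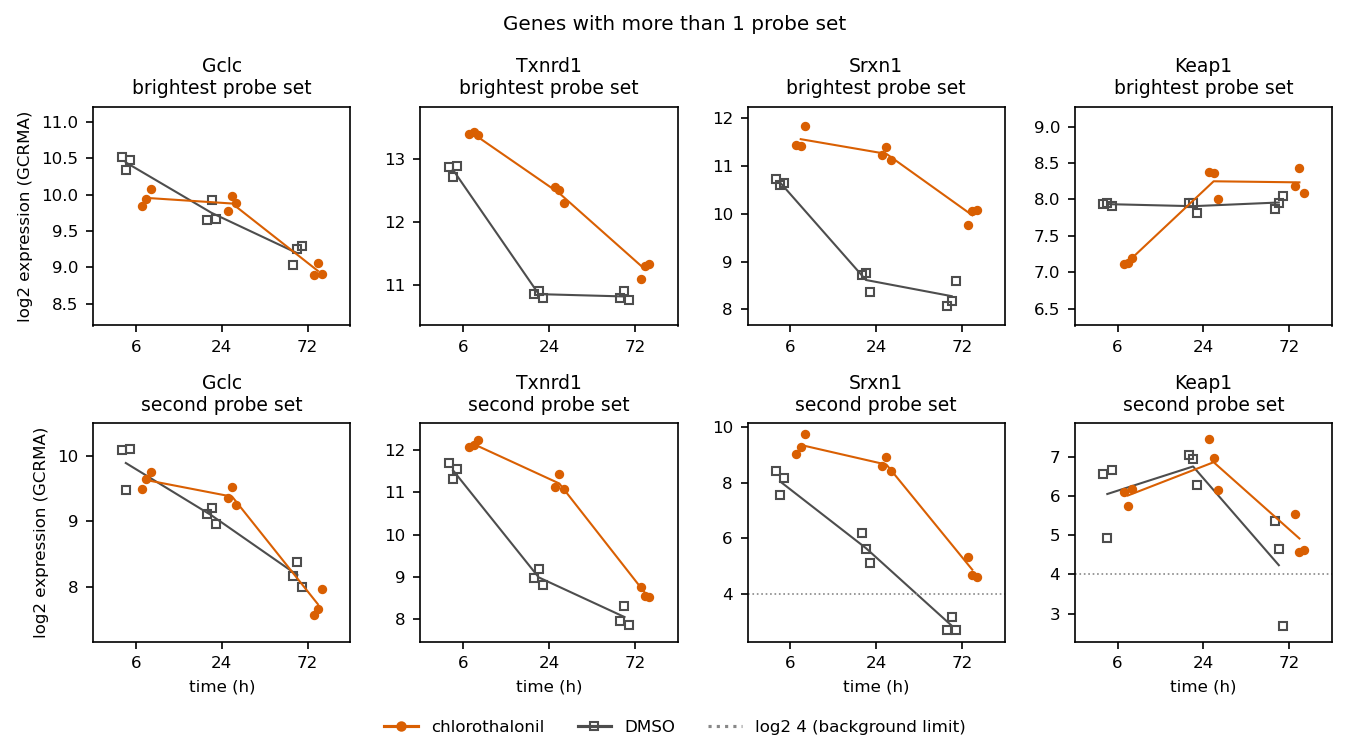
Log2 expression by time of the brightest and the second probe set of Gclc, Txnrd1, Srxn1 and Keap1, with 1 point per array and lines through the group means (filled circles, chlorothalonil; open squares, DMSO; dotted line, log2 4). Txnrd1 and Srxn1 show treated above DMSO in both probe sets on this scale (turned to −0.048 at 6 h and −0.24 at 72 h for the brightest of Txnrd1 on the poly-A scale), while the second probe set of Keap1 scatters from 2.69 to 5.36 in DMSO at 72 h.

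The course over the 6 groups differed among the 10 genes. After each gene was centred on its own mean of the 6 group means, the root mean square difference was smallest between Gclm and Gsr, at 0.26 on the log2 scale, and it was 0.49 between Txnrd1 and Srxn1. Among all genes tested, those nearest to Txnrd1 were Rpf2, at 0.085, and Gtpbp4, at 0.12, both genes of ribosome assembly. Rpf2 changed by 0.69, 1.76 and 0.24 at the 3 times (−0.43 at 72 h on the poly-A scale), and its call at 72 h was lost without DMSO replicate 3 or treated replicate 3 of 72 h (limma adjusted p = 0.0537 and 0.0974). Gtpbp4 changed by 0.59, 1.66 and 0.63 (−0.026 at 6 h and −0.038 at 72 h on the poly-A scale). With poly-A scaling no treatment change of Rpf2 or Gtpbp4 was called. Those nearest to Srxn1 were Plcxd2, whose means in DMSO at 24 and 72 h were below log2 4, and Hmga1, a chromatin protein, at 0.19. Hmga1 changed by 0.87 at 6 h (0.26 on the poly-A scale, not called) and by 2.14 at 24 h. For Osgin1, whose own mean in DMSO at 72 h was 3.95, they were the chemokine Cxcl10, with 3 of its 6 group means below log2 4, and Noct. Noct changed by 2.24, 3.20 and 2.25. The genes nearest to Slc7a11 were the interleukin receptor Il1rl1 and the smooth muscle actin Actg2, but Slc7a11 at 72 h and 3 of the 6 group means of Il1rl1 were below log2 4. A distance that includes such levels is not a measured one, and none is given for Plcxd2, Cxcl10, Noct, Il1rl1 or Actg2.

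The other genes of glutathione metabolism were mixed. Of 28 listed genes 27 were on the array and 22 were tested. By limma 11 rose and 3 fell at 6 h, 11 rose and 8 fell at 24 h, and 12 rose and 2 fell at 72 h, with median changes of 0.28, 0.20 and 0.16 beside −0.0097, 0.057 and 0.074 for all genes. Of all genes 27.8% were higher and 31.8% lower at 6 h, 39.1% and 31.1% at 24 h, and 37.2% and 27% at 72 h. On the poly-A scale, all 9149 genes gave 232 higher and 3587 lower, 256 and 6263, and 312 and 3464 at the same times. For the glutathione list that scale gave 2 and 3, 1 and 15, and 3 and 5, with medians of −0.33, −0.87 and −0.51. Chac1, which degrades glutathione, was higher by 2.41, 1.11 and 2.26 (SE 0.087; limma adjusted p = 2.30e-11, 2.49e-08 and 3.07e-11). Poly-A scaling left 0.034 at 24 h, no longer called. Ggt1, which breaks down glutathione outside the cell, was higher by 0.42 at 6 h (−0.20 on the poly-A scale), by 1.88 at 24 h and at least 3.11-fold at 72 h, from background in DMSO. Slc3a2, the partner chain of Slc7a11 in the cystine transporter, was higher by 0.76, 1.14 and 0.85 (0.14, 0.068 and 0.18 on the poly-A scale, none called). Its change at 72 h therefore stood beside an Slc7a11 signal at background in both groups. Cth, which makes cysteine from cystathionine, was higher by 1.85, 1.54 and 0.49 (0.47 at 24 h and −0.18 at 72 h on the poly-A scale, neither called).

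In the thioredoxin and peroxiredoxin system 23 of 26 listed genes were tested. The calls were 11 higher and 2 lower at 6 h, 12 and 7 at 24 h, and 11 and 3 at 72 h, with medians of 0.17, 0.21 and 0.10 (poly-A scale 1 and 5, 0 and 13, and 0 and 5, with medians of −0.44, −0.87 and −0.57). All genes had 27.8% higher and 31.8% lower, 39.1% and 31.1%, and 37.2% and 27%, with medians of −0.0097, 0.057 and 0.074. The share called lower at 24 h was thus near that of all genes on the deposited scale. On the poly-A scale all 9149 genes gave 232 higher and 3587 lower, 256 and 6263, and 312 and 3464. Their medians on that scale were −0.62, −1.02 and −0.60. Sesn2, a sestrin induced by stress, was higher by 2.56, 1.21 and 1.18 (0.14 at 24 h and 0.51 at 72 h on the poly-A scale, neither called). Its relative Sesn1 fell by 2.78 at 6 h and by 0.97 at 24 h and had a change of −0.052 at 72 h (limma adjusted p = 0.812). Sod2, the mitochondrial superoxide dismutase, was higher by 0.27, 1.53 and 0.91 (−0.35, 0.46 and 0.23 on the poly-A scale, none called). Txnip, which binds and inhibits thioredoxin, was higher by 0.79 at 6 h (0.18 on the poly-A scale, not called) and lower at 24 and 72 h, by −0.68 and −0.62.

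Of 20 listed regulators and partners of NRF2, 15 were tested. The calls were 7 higher and 4 lower, 10 and 3, and 8 and 1 at the 3 times. The median changes of the list were 0.019, 0.51 and 0.23. Of all genes 27.8% were higher and 31.8% lower, then 39.1% and 31.1%, and 37.2% and 27%. On the poly-A scale the list gave 2 and 6, 3 and 6, and 2 and 2, with medians of −0.60, −0.56 and −0.45. There all 9149 genes gave 232 higher and 3587 lower, 256 and 6263, and 312 and 3464, with medians of −0.62, −1.02 and −0.60. The small MAF proteins Maff and Mafk, which pair with NRF2 on DNA, were higher by 1.83, 3.17 and 1.86 and by 0.97, 2.75 and 1.06 (SE 0.091 and 0.10). With poly-A scaling Mafk changed by 0.36 at 6 h and 0.39 at 72 h, neither called. Maff arrays averaged log2 10.38 ± 0.095 in treated and 7.21 ± 0.087 in DMSO cells at 24 h (SD, n = 3). Sqstm1, the autophagy receptor that binds KEAP1, was higher by 1.81, 1.72 and 0.46 (0.64 at 24 h and −0.21 at 72 h on the poly-A scale, neither called). Pgam5, a mitochondrial phosphatase bound by KEAP1, was higher by 0.23 and 1.02 (−0.39 and −0.051 on the poly-A scale) with a change of 0.11 at 72 h (adjusted p = 0.131).

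Of 29 other NRF2 targets listed, 22 were tested, with 8 higher and 6 lower at 6 h, 8 and 7 at 24 h, and 12 and 4 at 72 h, and medians of 0.16, 0.013 and 0.23 (poly-A scale 1 and 7, 2 and 14, and 2 and 5, with medians of −0.46, −1.06 and −0.44). At 24 h both shares were near the 39.1% higher and 31.1% lower of all genes on the deposited scale. Those of all genes were 27.8% and 31.8% at 6 h and 37.2% and 27% at 72 h. On the poly-A scale all 9149 genes gave 232 higher and 3587 lower, 256 and 6263, and 312 and 3464. Their medians on that scale were −0.62, −1.02 and −0.60. Hmox1, heme oxygenase 1, was higher by 4.20 and 5.51 and, from background in DMSO, at least 32.9-fold at 72 h. Akr1b8, an aldo-keto reductase, was higher by 1.04, 3.48 and 1.95 (SE 0.099; limma adjusted p = 4.32e-07, 5.46e-13 and 4.47e-10). Poly-A scaling left 0.42 at 6 h, no longer called. Nqo1, a quinone reductase, fell by 1.09 at 6 h, changed by 0.0084 at 24 h (adjusted p = 0.919; −1.07 on the poly-A scale) and was higher by 0.74 at 72 h (0.074 on the poly-A scale, not called). Ephx1, the microsomal epoxide hydrolase, was higher by 0.56 at 6 h (−0.059 on the poly-A scale), lower by −2.08 at 24 h and higher by 1.10 at 72 h (0.43 on the poly-A scale, not called).

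**Figure D4:**
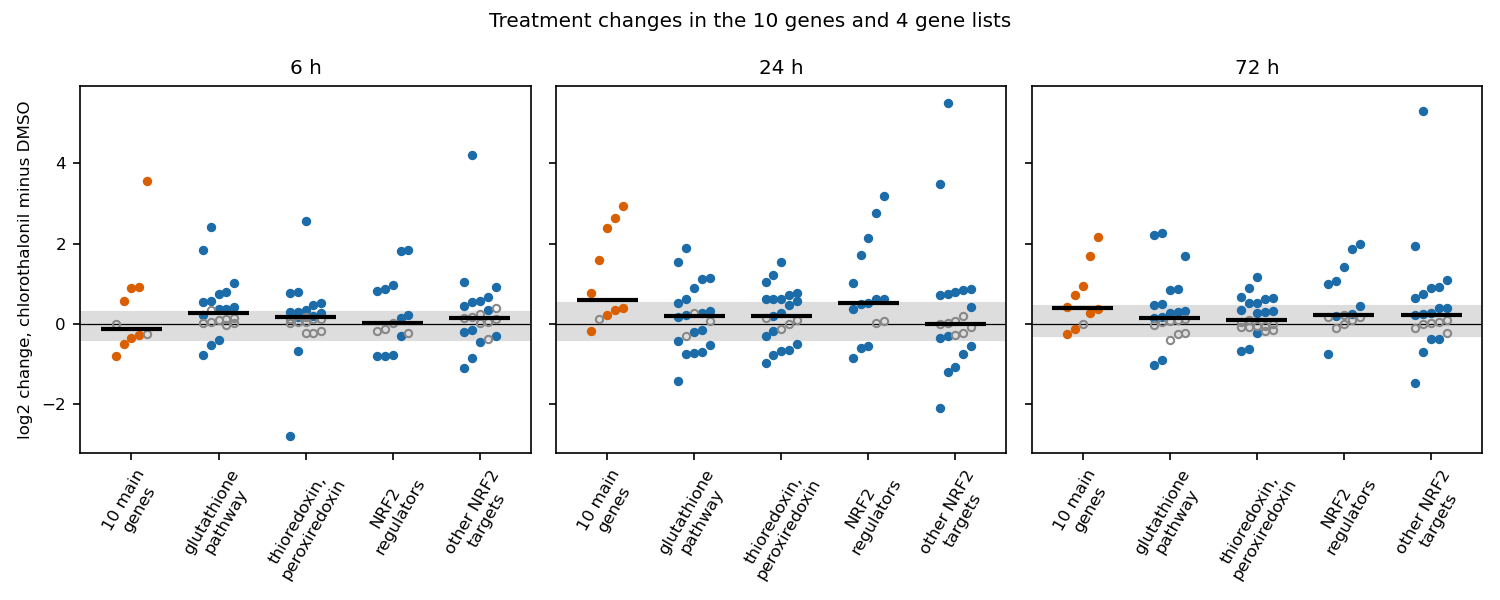
Treatment change (log2, chlorothalonil minus DMSO) of every tested gene in the 10 genes and the 4 related lists at 6, 24 and 72 h; filled points are called by limma, open points are not, bars are medians and the grey band runs from the lower to the upper quartile of all 9149 genes. The median of the 10 genes is −0.13 at 6 h, 0.59 at 24 h and 0.40 at 72 h on this scale (−0.74, −0.49 and −0.27 on the poly-A scale), and the point above 5 at 24 h and 72 h is Hmox1, whose DMSO level at 72 h was at background.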

How the data were processed

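RNA of NRK-52E cells was measured on 18 Affymetrix rat arrays, 3 per treatment and time. The deposited values are log2 expression values per probe set, made by the authors with GCRMA per the submitters' processing notes; for its version and settings the sources used here give nothing. Array medians lay between 3.93 and 4.22. Here probe sets above log2 4 in at least 3 of 18 arrays were kept (16686 of 31099). A gene was taken from its brightest kept probe set with 1 symbol (20832 probe sets have 1 symbol, 436 several, 9831 none), giving 9149 genes. With limma 3.58.1 in R 4.3.3, 1 model over all 6 groups gave the treatment changes, the time changes and the interactions (12 residual degrees of freedom), with Benjamini-Hochberg adjustment over 9149 genes. Where 1 group was at background, a fold is a lower bound, taken against log2 4. The fit was tested on simulated data. The members and gene lists were chosen with earlier results of these data known. Besides the 10 genes, the text names the 4 tested genes per list with the smallest p of the F test over the 3 treatment changes, and the 2 genes nearest in pattern to each member whose change reached 1. Alternatives were a limit of log2 6, no filter, quantile normalization, median centring, poly-A scaling, the replicate number as a block, array weights, only the groups compared, the mean of probe sets, and each array left out.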

Additional observations from a re-analysis of the deposited data

Results flagged for a closer look

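The following results were picked out because the treatment change differed between times by limma's interaction test. Of 30 such differences tested over the 10 genes, 21 were called, where 39.6% of all genes were called upward and 23.4% downward from 6 to 24 h, 27.9% and 29.8% from 24 to 72 h, and 37.4% and 21.6% from 6 to 72 h. Most of all genes were also called in each of these comparisons, upward or downward. Each value is the change at the later time minus the change at the earlier time on the log2 scale. Groups hold 3 arrays, so single arrays were not tested as outliers. On the poly-A scale 1 of the 10 genes was called in each of the 3 comparisons, beside 259 upward and 1232 downward, 1253 and 216, and 631 and 508 of all 9149 genes. The treatment change of Slc7a11 moved by 1.48 from 6 to 24 h (limma adjusted p = 1.16e-05), by −2.01 from 24 to 72 h (limma adjusted p = 6.53e-07) and by −0.53 from 6 to 72 h (limma adjusted p = 0.0288). Its level at 72 h was at background in both groups. For Gclc it moved by 0.62 from 6 to 24 h (limma adjusted p = 0.00109) and by −0.37 from 24 to 72 h (limma adjusted p = 0.0292). The second of these values of Gclc was 0.032 on the poly-A scale. The change of Gclm moved by 1.13 from 6 to 24 h (limma adjusted p = 5.71e-06) and by 1.30 from 6 to 72 h (limma adjusted p = 1.66e-06). For Gsr it moved by 0.65 from 6 to 24 h (limma adjusted p = 0.0139) and by 0.98 from 6 to 72 h (limma adjusted p = 0.000944). The change of Txn1 moved by 0.23 from 6 to 24 h (limma adjusted p = 0.0122) and by −0.23 from 24 to 72 h (limma adjusted p = 0.0129). Both turned on the poly-A scale for Txn1, to −0.23 and 0.17, and with median centring the first was 0.059 (limma adjusted p = 0.460). For Txnrd1 it moved by 1.03 from 6 to 24 h (limma adjusted p = 1.79e-06) and by −1.17 from 24 to 72 h (limma adjusted p = 5.84e-07). The change of Srxn1 moved by 1.72 from 6 to 24 h (limma adjusted p = 6.03e-06), by −0.94 from 24 to 72 h (limma adjusted p = 0.00148) and by 0.78 from 6 to 72 h (limma adjusted p = 0.00523). For Osgin1 it moved by −0.62 from 6 to 24 h (limma adjusted p = 0.032), by −0.78 from 24 to 72 h (limma adjusted p = 0.00978) and by −1.40 from 6 to 72 h (limma adjusted p = 0.000119). The first of these values of Osgin1 was not called with no filter (limma adjusted p = 0.0526) or quantile normalization (−0.49, limma adjusted p = 0.0886). Neither was it with only the groups compared (limma adjusted p = 0.0590) or poly-A scaling (limma adjusted p = 0.0975). The change of Keap1 moved by 1.14 from 6 to 24 h (limma adjusted p = 6.94e-06) and by 1.07 from 6 to 72 h (limma adjusted p = 1.37e-05). With the mean of both probe sets of Keap1 these were 0.64 and 0.89, neither called (limma adjusted p = 0.201 and 0.0825).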

How the results depend on the processing

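Of 80 changes of the 10 genes (3 treatment, 3 interaction and 2 DMSO time changes each), direction and side of the threshold held for 80 with a limit of log2 6, 77 with no filter, 75 with quantile normalization, 68 with median centring, 76 with array weights, 74 with only the groups compared, 71 with the mean of probe sets and 39 with poly-A scaling. Median centring ended 7 calls, among them Gclm at 6 h, Gsr at 24 h and Slc7a11 and Keap1 at 72 h (limma adjusted p = 0.0569, 0.0830, 0.0611 and 0.0992). The setting that turned directions most was poly-A scaling, where the cause was not tested. At 24 h it gave Gclc −0.95, Gclm −0.29, Gsr −0.68, Txn1 −0.84 and Keap1 −0.73. An added run, chosen after seeing the data, also left out DMSO replicate 1 of 24 h and gave Gclc −0.59, Gsr −0.24, Txn1 −0.42 and Keap1 −0.30. At 72 h poly-A scaling gave Slc7a11 −0.29, Txnrd1 −0.24 and Keap1 −0.39, and at 6 h Txnrd1 −0.048. Among interactions it gave 0.032 for Gclc and 0.17 for Txn1 from 24 to 72 h, and −0.23 for Txn1 from 6 to 24 h. In DMSO it gave Txn1 0.065 from 6 to 24 h and Nfe2l2 −0.032 from 24 to 72 h. Of other genes it turned Cth at 72 h (−0.18), Ggt1 at 6 h (−0.20), Sod2 at 6 h (−0.35), Sqstm1 at 72 h (−0.21), Pgam5 at 6 h (−0.39) and 24 h (−0.051), Nqo1 at 24 h (−1.07, and −0.67 without that array), Ephx1 at 6 h (−0.059), Rpf2 at 72 h (−0.43) and Gtpbp4 at 6 h (−0.026) and 72 h (−0.038). The mean of probe sets turned Keap1 in DMSO from 24 to 72 h, to −1.23. Counts also moved: with poly-A scaling 1 gene was called higher at 6 h, 3 higher and 4 lower at 24 h (4 and 2 in the added run) and 2 higher at 72 h, 1 interaction was called in each comparison, and 4 and 2 genes were called in DMSO. With only the groups compared 0 were lower at 24 h and 0 at 72 h (limma; 1 and 2 otherwise), and 1 was lower at 72 h with no filter, with the replicate block and with the mean of probe sets. Leaving out 1 array at a time gave 4 to 4 higher and 4 to 4 lower at 6 h, 7 to 8 and 1 to 1 at 24 h, 5 to 7 and 0 to 2 at 72 h, 8 to 9, 5 to 6 and 5 to 6 interactions, and 7 to 8 and 5 to 7 changes in DMSO. Calls of Osgin1 from 6 to 24 h (interaction) and of Slc7a11 from 6 to 72 h were lost without single arrays, at limma adjusted p of 0.0649 to 0.0880 and 0.0527 to 0.0793.

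Whether the replicate numbers pair the arrays is not settled here, because same-number pairs were not compared with different-number pairs. The 9 same-number pairs correlated at −0.044 to 0.30 in their deviations from the group means, 3 of them above 0.1. With the replicate block 78 of 80 changes held; Nfe2l2 at 72 h (limma adjusted p = 0.0619) and Txn1 in DMSO from 6 to 24 h (0.0502) were no longer called. Genes near log2 4, such as Slc7a11 at 72 h, are limited by signal over background.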
